A study of Mus musculus with 7 samples.

Results

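The activin and follistatin genes taken here are 9 genes chosen by their symbol in the platform annotation: the activin subunits Inhba and Inhbb, the follistatin and follistatin-like genes Fst, Fstl1 and Fstl3, and the receptors Acvr1, Acvr1b, Acvr2a and Acvr2b. Of these, 8 were each read by 1 of the 25695 probe IDs, among 16591 genes with a symbol, and Fstl3 was not analysed here. Of the 8 genes, 7 lay above the detection limit and Acvr1b did not. The values come from palatal shelves, the outgrowths of the upper jaw that later meet to form the palate, taken from single mouse embryos at E13.75. The Adamts9+/-:bt/bt group (4 embryos, called mutant here) is heterozygous for Adamts9 and homozygous for bt, the belted allele of Adamts20. The wild-type group (WT, 3 embryos) is of the same age, and C57BL/6 is the labelled strain of both groups. Each embryo was read on 1 Illumina array, so the number of arrays limits the precision.

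Activins are secreted dimers of inhibin beta subunits. They bind a type II receptor (Acvr2a or Acvr2b), which recruits and phosphorylates a type I receptor, mainly Acvr1b, and this receptor passes the signal to the transcription factors Smad2 and Smad3. Follistatin, the product of Fst, wraps around activin outside the cell and keeps it from its receptors. Acvr1 is a type I receptor used mostly by bone morphogenetic proteins (BMPs), which share the type II receptors with activins. In mice, loss of Inhba causes defects of the palate, whiskers and incisors.

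The promoter windows of Inhba and Fstl1, which fell, and of Acvr2b, whose direction depended on the scaling of the arrays, are shown first. Each runs 5′ to 3′ along the strand of the gene, from 250 bases before to 50 bases after a RefSeq transcription start in GRCm38.p6, and capitals mark the motifs found.
Inhba, chr13:16011601-16011900, plus strand: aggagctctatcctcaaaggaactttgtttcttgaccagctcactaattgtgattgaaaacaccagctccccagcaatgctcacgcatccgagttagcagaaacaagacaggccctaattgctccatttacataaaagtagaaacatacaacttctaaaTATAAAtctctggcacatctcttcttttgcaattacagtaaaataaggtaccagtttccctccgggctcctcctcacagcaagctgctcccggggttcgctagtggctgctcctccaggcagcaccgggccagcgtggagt
Fstl1, chr16:37776805-37777104, plus strand: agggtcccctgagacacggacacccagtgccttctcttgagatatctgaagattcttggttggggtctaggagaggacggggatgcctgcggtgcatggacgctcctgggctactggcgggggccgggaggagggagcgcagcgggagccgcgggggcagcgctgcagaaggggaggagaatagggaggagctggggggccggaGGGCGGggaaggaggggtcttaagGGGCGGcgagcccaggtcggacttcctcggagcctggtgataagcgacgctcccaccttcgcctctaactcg
Acvr2b, chr9:119401928-119402227, plus strand: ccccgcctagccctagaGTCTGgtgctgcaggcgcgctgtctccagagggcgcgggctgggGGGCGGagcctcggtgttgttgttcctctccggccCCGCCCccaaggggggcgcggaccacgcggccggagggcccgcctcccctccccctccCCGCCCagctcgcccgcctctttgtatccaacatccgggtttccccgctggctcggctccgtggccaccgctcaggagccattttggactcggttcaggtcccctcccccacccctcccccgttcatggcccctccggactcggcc

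The search, on both strands, covered 4 motifs. These were the TATA box, spelled TATAAA and held by 13.6% of 32851 RefSeq promoter windows of this length, and the SMAD-binding element, spelled CAGAC and held by 49.6% of them. The GC box, spelled GGGCGG, was held by 35.7% and the E-box, spelled CANNTG, by 72.3%. The Inhba window held 1 match to the TATA box spelling, at base -91 from the transcription start, and none of the other motifs. Whether any match acts as a promoter element was not tested. The Fstl1 window held 2 GC boxes, and the Acvr2b window held 3 GC boxes and 1 SMAD-binding element, with no overlap between motifs in these windows. RefSeq windows were available for 8 of the 9 genes, all but Fst. The receptor windows were the richest of these in CpG dinucleotides, with 51 in Acvr1, 51 in Acvr1b, 54 in Acvr2a and 27 in Acvr2b, while Inhba had 7, Fstl1 21, Inhbb 23 and Fstl3 25.

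In the mutant shelves the activin A subunit gene Inhba and the follistatin-like gene Fstl1 fell, and follistatin (Fst) and the type II receptor gene Acvr2b rose on the quantile-normalized scale. Fstl1 was 1.96-fold lower (log2 difference -0.97, SE 0.093) and Inhba 1.76-fold lower (-0.81, SE 0.21). Fst was 1.29-fold higher (0.37, SE 0.10) and Acvr2b 1.21-fold higher (0.28, SE 0.060), with 4 mutant and 3 WT arrays in each comparison. Both falls also held in the intensities as deposited, while the rises of Fst and Acvr2b did not. Of the 7 detected members, 4 passed an adjusted p of 0.05 by limma (Benjamini-Hochberg over all detected features), 2 higher and 2 lower, where 36.8% of 10869 detected features passed, 16.9% higher and 19.8% lower. Mutant and WT values did not overlap for 5 members, against 42.6% of detected features (19.7% with the mutants above and 22.9% with the mutants below). In bulk tissue such as this, fewer cells of a type and less RNA per cell cannot be told apart.

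The arrays differed in brightness, which touches the rises and the size of the falls given here. The upper quartile of deposited intensity was 184 ± 11.8 in the mutant arrays (SD, n = 4) and 232.3 ± 20.3 in the WT arrays (SD, n = 3), without overlap. The median log2 difference of all detected features was -0.0034 after quantile normalization, -0.14 after median centring and -0.18 with no normalization between arrays. In deposited intensity the groups did not overlap for 3 members (Inhba, Inhbb and Fstl1), each lower in the mutants, against 43% of features (5.92% above and 37.1% below). With no normalization 2 members passed, both lower, where 42.6% of features passed, 5.47% higher and 37.1% lower. All 12 listed markers of palatal mesenchyme had a mean above the detection limit, though Pax9 and Tbx22 did not exceed it on every array.

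**Figure D1:**
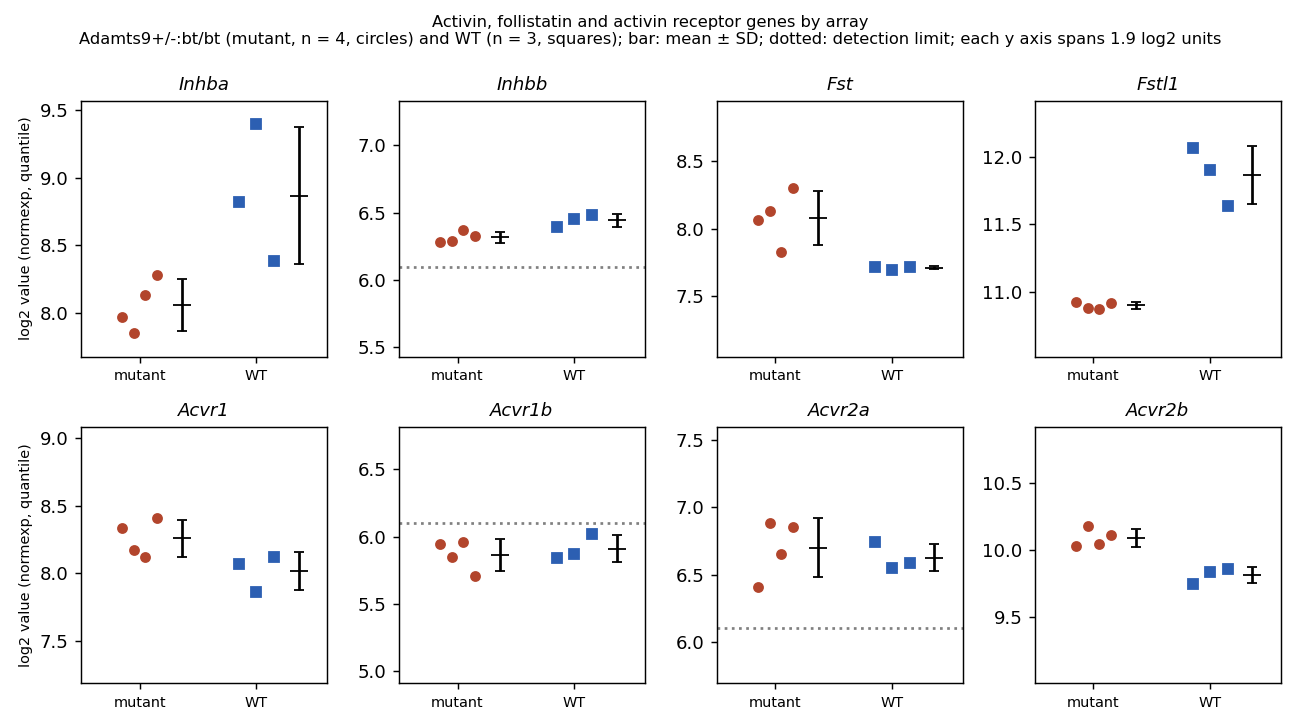
Log2 value (normexp background correction, quantile normalization) of the 8 members with a probe on each array, with mutant arrays as circles and WT arrays as squares, bars for the mean ± SD, and the detection limit of 6.1 dotted where it falls in range. Fstl1 and Inhba lie lower in all 4 mutant arrays than in any WT array, Fst and Acvr2b lie higher, and Acvr1b lies under the limit on every array.

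Among the ligands, Inhba encodes the inhibin beta A subunit, which pairs with itself to form activin A (probe ILMN_2868220). Its log2 values were 7.97, 7.85, 8.13 and 8.28 in mutant replicates 1 to 4, against 8.82, 9.40 and 8.39 in WT replicates 1 to 3. All mutant values lay below all WT values, with WT replicate 3 nearest to them, and the WT arrays were spread more widely (SD 0.51, n = 3) than the mutant arrays (SD 0.19, n = 4). The log2 difference of -0.81 had a 95% interval of -1.29 to -0.34 (limma adjusted p = 0.0156). Its exact permutation p, two-sided, was 0.0286, and no lower value is possible with 4 arrays against 3. In deposited intensity the mutant arrays read 236.4, 197.8, 239.8 and 250.4 and the WT arrays 539.6, 801 and 337.7, a ratio of group means of 0.413. The size depended on the WT arrays: it was -0.54 without WT replicate 2 (adjusted p = 0.0265), -1.06 without WT replicate 3 (adjusted p = 0.00117), and -0.33 with WT replicate 3 as the only WT array, where the call was lost (adjusted p = 0.197).

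Inhbb encodes the inhibin beta B subunit of activin B (probe ILMN_2653725). It read close to the detection limit of 6.1, at 6.28, 6.29, 6.37 and 6.33 log2 units in the mutant arrays, against 6.39, 6.46 and 6.48 in the WT arrays. The mutant values again lay below the WT values without overlap. The difference was small, at -0.12 (SE 0.054, 95% interval -0.25 to -0.0012), and it did not pass after adjustment (limma adjusted p = 0.105, exact permutation p = 0.0286). Inha, the alpha subunit gene whose product pairs with a beta subunit to make inhibin in place of activin, was 1.47-fold lower in the mutants. It read 6.63, 6.63, 6.53 and 6.75 in mutant arrays and 7.17, 7.23 and 7.17 in WT arrays (log2 difference -0.55, SE 0.064, limma adjusted p = 0.000317). The 3 detected inhibin subunit genes, Inha, Inhba and Inhbb, thus read lower in each mutant array than in any WT array, as did 22.9% of detected features. Of these 3 genes, Inha and Inhba passed the threshold, where 19.8% of detected features were called lower.

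Fst encodes follistatin, the main extracellular inhibitor of activin (probe ILMN_1228958). Its log2 values were 8.07, 8.13, 7.82 and 8.31 in the mutant arrays, against 7.71, 7.70 and 7.72 in the WT arrays. The WT arrays were close together (SD 0.011) and the mutant arrays lay above them over a wider range (SD 0.20). The log2 difference was 0.37 (95% interval 0.14 to 0.60, limma adjusted p = 0.0194, exact permutation p = 0.0571). The deposited intensities were 255.3, 241.7, 192.8 and 254.5 in mutant arrays and 243.6, 233.5 and 206.8 in WT arrays, so before normalization the groups overlapped, at a ratio of means of 1.04 (exact permutation p = 0.657). With median centring the difference was 0.086 (adjusted p = 0.538), which is 0.22 above the shift of the median feature. The call was also lost without WT replicate 1 (0.37, adjusted p = 0.0583), without WT replicate 2 (0.36, adjusted p = 0.0542) and with WT replicate 3 as the only WT array (0.36, adjusted p = 0.175).

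Fstl1 encodes a secreted glycoprotein with a follistatin domain, known in mice to be needed for the lung and skeleton (probe ILMN_2734683). Its log2 values were 10.92, 10.88, 10.87 and 10.92 in the mutant arrays, against 12.06, 11.90 and 11.64 in the WT arrays. The mutant arrays lay within a narrow range (SD 0.026) and below every WT array (SD 0.22). The log2 difference was -0.97 (95% interval -1.18 to -0.76, limma adjusted p = 0.000143, exact permutation p = 0.0286). Deposited intensities were 1985, 1688, 1674 and 1594 in mutant arrays and 4946, 4509 and 3243 in WT arrays, a ratio of group means of 0.41. The call held without each array in turn (-1.09 to -0.87). It also held with WT replicate 3 as the only WT array (-0.73, adjusted p = 0.00162), a fit in which it was the 1 member called of 7, beside 16.1% of features.

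Of the receptors, Acvr2b, a type II receptor of activins, myostatin and several BMPs, passed the threshold (probe ILMN_1230145). It read 10.03, 10.18, 10.05 and 10.11 log2 units in the mutant arrays, against 9.75, 9.83 and 9.86 in the WT arrays, without overlap and with a small spread in both groups. The log2 difference was 0.28 (95% interval 0.14 to 0.41, limma adjusted p = 0.00709, exact permutation p = 0.0286). Its deposited intensities overlapped, at 1063, 1039, 946 and 902.8 in mutant arrays and 1034, 1084 and 935.5 in WT arrays, a ratio of group means of 0.97. With median centring the difference was -0.0027 (adjusted p = 0.982), which is 0.13 above the shift of the median feature. With WT replicate 3 as the only WT array it was 0.24 (adjusted p = 0.116).

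Acvr1, the type I receptor also called ALK2 (probe ILMN_2660103), read 8.33, 8.18, 8.12 and 8.41 log2 units in mutant arrays and 8.07, 7.86 and 8.12 in WT arrays. The groups met at mutant replicate 3 and WT replicate 3, and the difference of 0.24 (SE 0.092, 95% interval 0.034 to 0.45) did not pass (limma adjusted p = 0.0687). It passed without WT replicate 3 (0.30, adjusted p = 0.0432), a fit that called 5 of 7 members beside 39.7% of features, and it was -0.051 with median centring. Acvr2a, the other type II receptor (probe ILMN_2617775), read 6.41, 6.89, 6.66 and 6.85 in mutant arrays, a range that enclosed the WT values of 6.74, 6.55 and 6.59. Its difference of 0.075 had a 95% interval of -0.19 to 0.34 (limma adjusted p = 0.66). Acvr1b, the type I receptor that carries most activin signalling (probe ILMN_2746036), read 5.94, 5.85, 5.96 and 5.71 in mutant arrays and 5.84, 5.87 and 6.02 in WT arrays. All 7 values lay under the detection limit and overlapped (exact permutation p = 0.629).

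**Figure D2:**
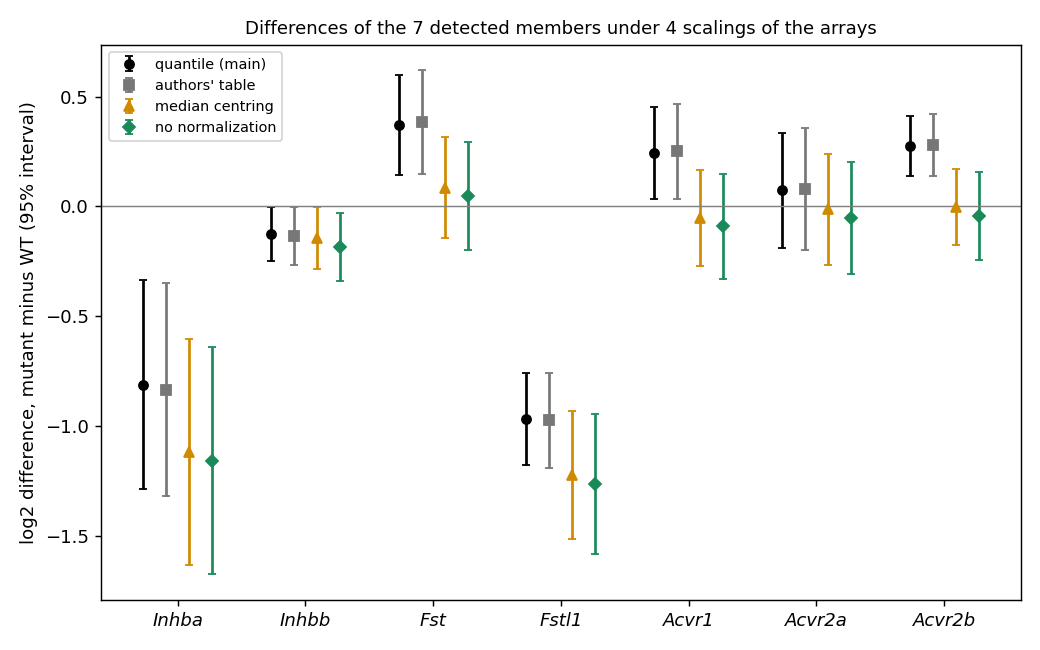
Log2 difference, mutant minus WT, with its 95% interval for the 7 detected members under quantile normalization, in the authors' deposited table, with median centring and with no normalization between arrays (n = 4 mutant and 3 WT arrays). Inhba and Fstl1 lie below 0 under all 4, while Fst and Acvr2b lie above 0 under the first 2 and have intervals that span 0 under the others. The first 2 are close to the same scaling, as the authors' values lie within 0.11 of log2 quantile-normalized intensities.

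In the authors' deposited table, on a log2 scale, Fstl1 averaged 10.84 ± 0.025 in the mutants and 11.82 ± 0.22 in WT (SD, n = 4 and 3). Inhba averaged 7.94 ± 0.20 in the mutants and 8.78 ± 0.52 in WT there. The log2 differences in the authors' deposited table, with limma's adjusted p, were -0.98 for Fstl1 (0.000149), -0.83 for Inhba (0.015), 0.39 for Fst (0.0192), 0.28 for Acvr2b (0.00813), 0.25 for Acvr1 (0.0697), -0.14 for Inhbb (0.099) and 0.079 for Acvr2a (0.662). Fstl1, Inhba, Fst and Acvr2b passed there too, beside 36.6% of features. The values of that table lie within 0.11 of log2 quantile-normalized intensities, so it is not a scaling apart from the quantile one.

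The ratio of a pair of genes on the same array is not moved by a common scaling factor of that array, and it shows whether the pair changed unequally. The log2 ratio of Inhba over Fst, ligand subunit over antagonist, was -0.10, -0.28, 0.31 and -0.024 in the mutant arrays and 1.11, 1.70 and 0.67 in the WT arrays. The difference of the group means was -1.18 after normalization and -1.24 in the deposited intensities, with no overlap in either. Inhba over Acvr2b was -2.07, -2.33, -1.92 and -1.83 in mutant arrays, against -0.93, -0.43 and -1.47 in WT arrays, again without overlap. Fstl1 over Acvr2b was 0.89, 0.70, 0.83 and 0.81 in mutant arrays and 2.31, 2.07 and 1.78 in WT arrays, a difference of -1.25 (-1.22 in deposited intensities).

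Inhba and Fstl1, which both fell, had a ratio to each other that overlapped between the groups, at -2.84 ± 0.19 in the mutants and -3.00 ± 0.43 in WT (SD, n = 4 and 3). Fst over Acvr2b overlapped as well, at -2.01 ± 0.17 in the mutants and -2.11 ± 0.058 in WT. Of the 21 pairs among the 7 detected members, 13 had ratios without overlap after normalization, beside 47% of all pairs of detected features, and 11 in the deposited intensities, beside 48.8%. These pairs share genes and are not independent. Relative to Fst, Acvr1, Acvr2a and Acvr2b on the same array, Inhba and Fstl1 were each lower in the mutants without overlap, both after normalization and in deposited intensity. Relative to Inhbb, Fstl1 was lower without overlap in both, while Inhba over Inhbb overlapped after normalization, at 1.74 ± 0.17 in the mutants and 2.43 ± 0.52 in WT, and did not overlap in deposited intensity.

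**Figure D3:**
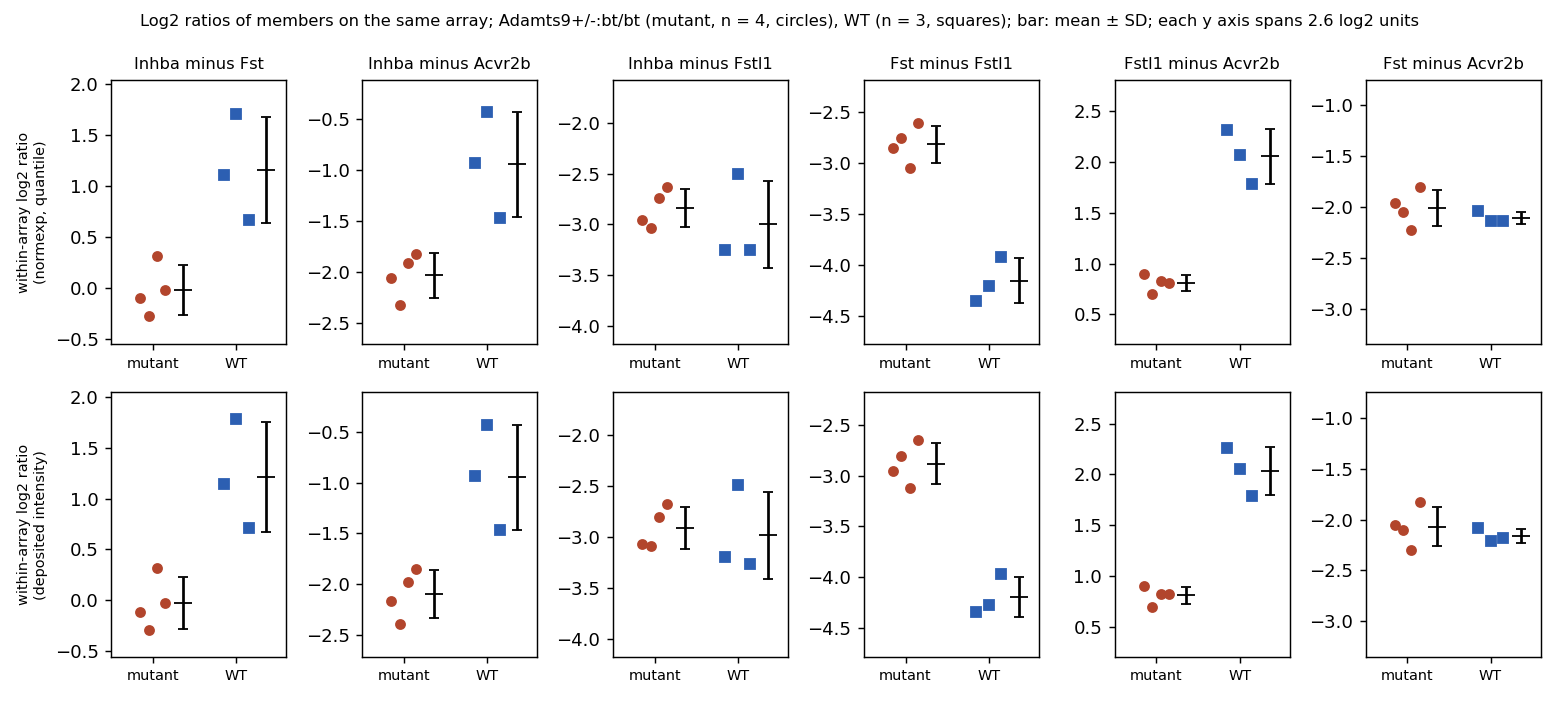
Log2 ratio of a pair of members on the same array for 6 pairs, after normalization (top) and in deposited intensity (bottom), with mutant arrays as circles, WT arrays as squares and bars for the mean ± SD. The ratios of Inhba to Fst and Acvr2b and of Fstl1 to Fst and Acvr2b separate the groups in both rows, while Inhba to Fstl1 and Fst to Acvr2b overlap.

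Genes related to these members were read from 6 lists of related ligands, receptors, antagonists, signal transducers, response genes and follistatin-domain genes. Of 85 listed genes, 55 were detected, and 11 were higher and 12 lower in the mutants by limma (median log2 difference -0.020, and -0.0034 over all detected features). On this scale 16.9% of all detected features were called higher and 19.8% lower. These shares also stand beside the counts of each list below. With median centring 4 of the 55 were higher and 20 lower. There 2 members passed, both lower, where 42.6% of features passed, 6.97% higher and 35.7% lower. With no normalization 5.47% of features were higher and 37.1% lower. The list counts under either scaling stand beside the shares of that scaling. Of 10 detected ligands, 5 were lower and 5 did not pass (median -0.42). Tgfb3, a ligand that fusion of the palatal shelves requires, was 1.95-fold lower, at 8.40, 8.32, 8.13 and 8.24 log2 units in mutant arrays and 9.35, 9.31 and 9.03 in WT arrays (log2 difference -0.96, SE 0.095, limma adjusted p = 0.00016). Inha, given above, Tgfb1 (-0.55, SE 0.11), Bmp6 (-0.62, SE 0.14) and Bmp7 (-0.42, SE 0.11) fell too. With median centring and with no normalization 7 of the 10 were lower, and Bmp7 was -0.69 and -0.73. The Bmp7 call was lost without WT replicate 2 (-0.33, adjusted p = 0.0544).

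Of the other receptors and co-receptors, 3 of 8 detected genes fell and 5 did not pass (median -0.17), while with median centring and with no normalization 5 of 8 were lower (medians -0.37 and -0.41). Eng, the endothelial co-receptor endoglin, was 2.00-fold lower (SE of the log2 difference 0.12, limma adjusted p = 0.000439). Tgfbr3, or betaglycan, a co-receptor that lets inhibin compete with activin, had a difference of -0.38 (SE 0.089, adjusted p = 0.0105). Tgfbr2, the type II receptor of TGF-beta, had one of -0.33 (SE 0.089, adjusted p = 0.0196), a call lost without mutant replicate 3 (-0.29) and without WT replicate 1 (-0.28), with adjusted p up to 0.0762. With median centring Tgfbr3 was -0.63 and Tgfbr2 -0.63, both called. Among the 5 detected antagonists other than follistatins, Nbl1 (0.40) and Chrd (0.27) were higher and Nog (-0.28) was lower. These 3 calls were lost without 3, 5 and 4 of the single arrays, in each case also without mutant replicate 3 and without WT replicate 1, with adjusted p up to 0.11 for Nbl1, 0.173 for Chrd and 0.132 for Nog. With median centring Nbl1 was not called and Chrd was -0.013.

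Smad3, a transcription factor that activin receptors act on, fell in the mutants. It read 8.46, 8.41, 8.25 and 8.34 log2 units in the mutant arrays, against 8.91, 9.15 and 8.78 in the WT arrays, without overlap (log2 difference -0.58, SE 0.092, limma adjusted p = 0.00148), and its difference was -0.89 with median centring. Smad2, the other one, was 0.18 higher (SE 0.060, adjusted p = 0.0466), a call lost without any 1 of 6 arrays, mutant replicate 4 being the exception (adjusted p up to 0.169), and it was -0.12 with median centring. Fkbp1a, which encodes the immunophilin FKBP12 that holds type I receptors inactive, was 1.96-fold higher, averaging 10.96 ± 0.072 in mutant arrays and 9.99 ± 0.47 in WT arrays (SD, n = 4 and 3), with limma's adjusted p at 0.00329. In all, 5 of 12 detected transducers were higher and 1 lower, and with median centring 1 was higher and 3 lower. Tgif1 (0.30) and Skil (0.22), which encode Smad corepressors, and the BMP transducer Smad1 (0.23) lost their calls without 5, 5 and 6 of the 7 single arrays, WT replicates 1 and 2 among them, with adjusted p up to 0.117, 0.159 and 0.0945. With median centring Skil was -0.043, Smad1 was -0.083 and Tgif1 was not called.

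Of 10 detected genes known to respond to activin or TGF-beta, 2 were higher and 2 lower in the mutants on the quantile-normalized scale (median 0.053), 1 was higher and 3 lower with median centring, and 0 were higher and 3 lower with no normalization. Cdkn1a, the gene of the cell cycle inhibitor p21, rose by 0.61 (SE 0.14, limma adjusted p = 0.00773) and was 0.40 with median centring (adjusted p = 0.0483). Its call was lost with no normalization between arrays (0.36, adjusted p = 0.0742), and Skil was the other rise. Junb, an AP-1 transcription factor, had a difference of -0.44 (SE 0.10, adjusted p = 0.00835), and the matrix gene Tgfbi one of -0.39 (SE 0.10, adjusted p = 0.0179). The Tgfbi call was lost without mutant replicate 3 and without WT replicate 1 (adjusted p up to 0.0591), and its difference was -0.64 with median centring. Of the 12 detected genes with a follistatin domain other than the members, 3 were higher and 9 did not pass, and with median centring and with no normalization 2 were higher and 1 lower. The 3 were the testican genes Spock3 (1.08, SE 0.082, adjusted p = 7.37e-05) and Spock2 (0.71, SE 0.080, adjusted p = 0.000274) and Igfbp7 (0.37, SE 0.12, adjusted p = 0.0386). The Igfbp7 call was lost without 5 of the 7 single arrays, mutant replicate 4 and WT replicate 2 being the exceptions (adjusted p up to 0.0989), and with median centring. With WT replicate 3 as the only WT array, the pathway genes named here that kept their calls were Tgfb3, Inha, Eng, Smad3, Fkbp1a, Tgfbi, Spock3, Spock2 and Igfbp7.

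**Figure D4:**
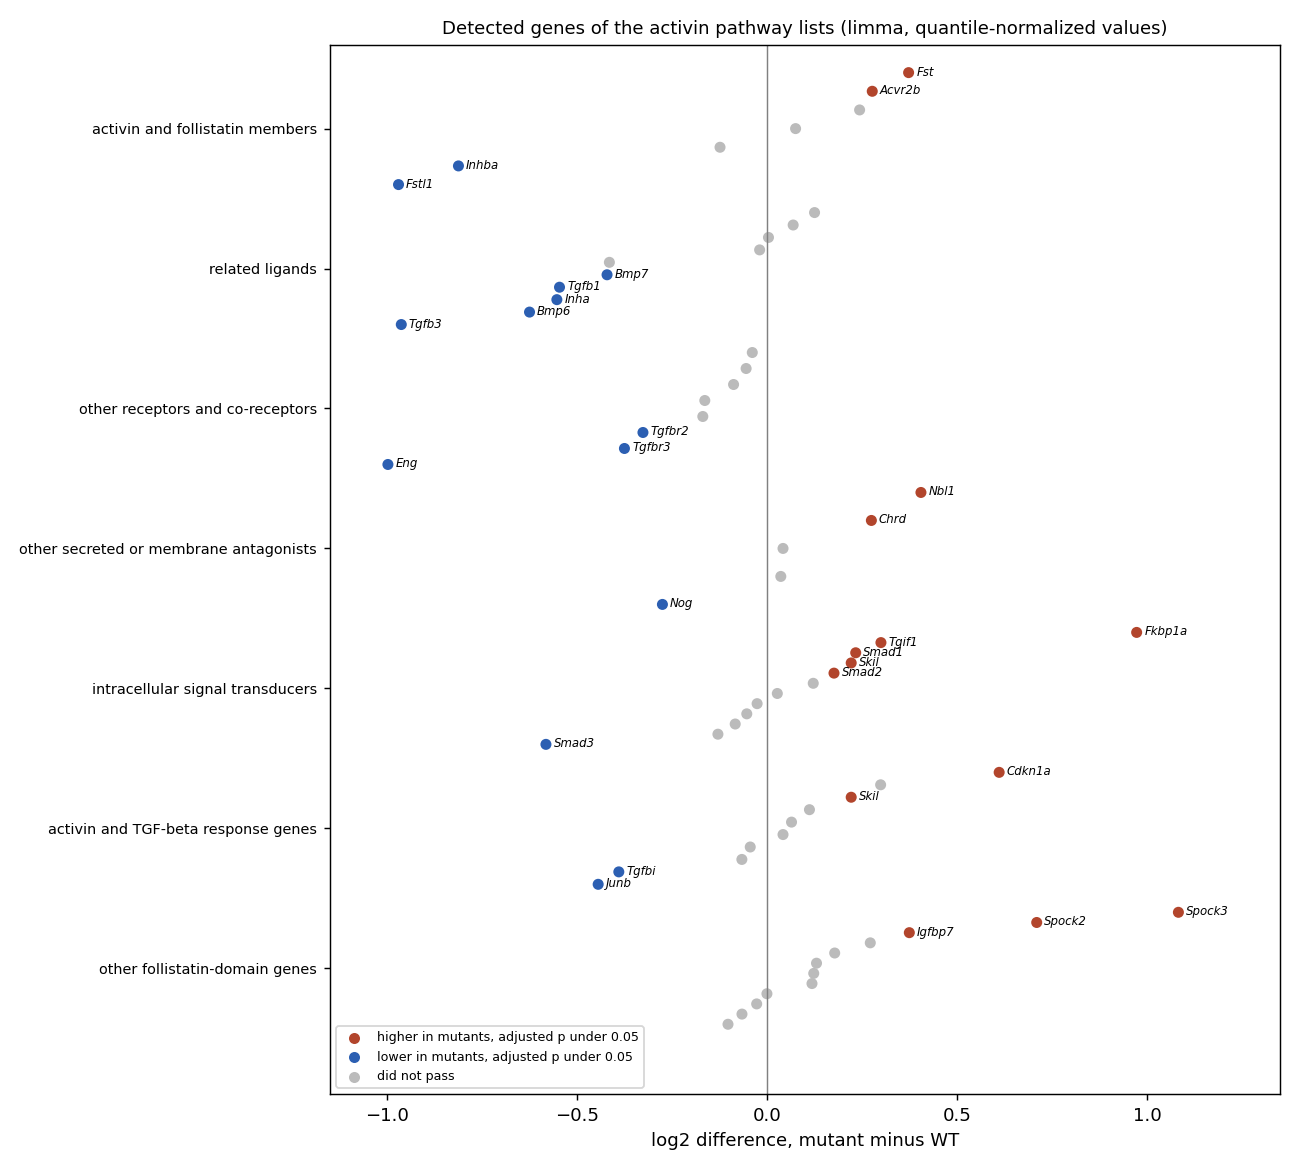
Log2 difference, mutant minus WT, of the detected members and of the detected genes of 6 related lists, each point 1 gene, coloured where limma's adjusted p was under 0.05. In the lists of related ligands and of other receptors the named genes lie left of 0 (Tgfb3 at -0.96), and the transducers and follistatin-domain genes hold most of the named genes to the right (Fkbp1a at 0.97, Spock3 at 1.08).

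The detected genes whose values over the 7 arrays lay nearest to those of each called member were found by root mean square distance on the log2 scale, each gene centred on its own mean. Nearest to Inhba were Tcf7l1 (0.13), a transcription factor of WNT signalling, Zfp653 (0.14) and Six2 (0.15), a homeobox gene. Nearest to Fst were Txnip (0.076), Pabpc1 (0.084) and Prkg1 (0.089). Nearest to Fstl1 were Vmac (0.063), Upf1 (0.068), a helicase of nonsense-mediated decay, and Anxa6 (0.069), an annexin. Nearest to Acvr2b were Apmap (0.029), Zfp263 (0.029) and Pogk (0.033). The distances were taken on quantile-normalized values and not scaled to the size of the change, so they do not compare between members. They were not tested. With median centring Txnip, Pabpc1, Prkg1, Apmap and Zfp263 were not called.

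Marker lists of 10 cell types and tissues were read on the same arrays, where 16.9% of all detected features were called higher and 19.8% lower on the quantile-normalized scale. With median centring 6.97% were higher and 35.7% lower, and with no normalization 5.47% were higher and 37.1% lower. Neuron markers were higher in the mutants in 9 of 10 detected genes of 12 listed, also with median centring and with no normalization, with Nefl and Snap25 under the detection limit. Their summed normalized signal was 8434 to 12223 in mutant arrays and 1615 to 3191 in WT arrays. Palatal mesenchyme markers were lower in 4 of 12 (Twist1, Msx1, Barx1 and Osr2) and 8 did not pass, whereas 8 of 12 were lower with median centring and with no normalization (medians -0.17 on the quantile-normalized scale and -0.48 and -0.52 on the others). Their sums were 7992 to 9427 in mutant arrays and 12528 to 14570 in WT arrays. Msx1, a homeobox gene of this mesenchyme, read 10.25, 10.07, 10.38 and 10.51 in mutant arrays and 11.61, 12.18 and 10.94 in WT arrays. Endothelial markers, which include Eng, were lower in 5 of 7 detected genes (6 of 7 with median centring and with no normalization), with sums of 1510 to 1876 in mutant arrays and 2061 to 2541 in WT arrays. Of 8 detected skeletal muscle markers, 1 was higher, Des (0.72, SE 0.23, limma adjusted p = 0.0359, without overlap), and none passed under the other scalings. The muscle list had a median of 0.50 and sums that overlapped, at 7681 to 12115 in mutant arrays and 2881 to 8523 in WT arrays. Of 8 detected epithelial markers, 1 was higher, Cdh1 (0.56, SE 0.091, limma adjusted p = 0.00172, without overlap), with 1 higher and 2 lower under median centring and 0 higher and 2 lower with no normalization. Epithelial sums overlapped, at 6752 to 10764 in mutant arrays and 7196 to 10708 in WT arrays. On the quantile-normalized scale 2 of 6 red cell genes (Hbb-y and Hba-x) and 1 of 5 cartilage genes (Col2a1) were lower, 1 of 3 bone genes was higher (Ibsp), and none of 5 leukocyte genes or the 1 detected glial gene passed. The cartilage and bone lists were mixed in direction. Matn1 of cartilage had a difference of 1.03 (limma adjusted p = 0.0559) and Alpl of bone one of -0.47 (limma adjusted p = 0.0648). With median centring and with no normalization alike, 5 red cell, 2 cartilage, 1 leukocyte and 1 bone gene were lower and 1 bone gene was higher. The part of these shifts in the differences of the activin and follistatin genes was not tested.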

How the data were processed

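Total RNA from palatal shelves of 4 mutant and 3 WT embryos was labelled with biotin, per the labels' protocols. The deposited sample files hold linear probe intensity, not normalized between arrays, as their values show. The authors' deposited table holds log2 values that rank the probes of each array as the intensity does. They lie within 0.11 of the log2 of the deposited intensities after quantile normalization without background correction. The sources used here name no scanner software, background step or normalization of the authors. Probe IDs with the same 7 intensities were taken as 1 feature (18116 from 25695 probe IDs), and no detected member shared its row. Symbols came from the platform annotation (23976 probe IDs with 1 symbol, 1719 with none).

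Background was corrected by normexp (offset 50), and log2 values were then quantile-normalized. Detected means a mean above the 40th percentile (6.1). Groups were compared with limma 3.58.1 in R 4.3.3, with no covariate, two-sided, at an adjusted p of 0.05 (Benjamini-Hochberg, 10869 features), tested on simulated data first. Permutation tests were exact and two-sided over 35 splits. Members, lists, markers and tests were chosen with earlier results of these data known. All members are named, as are up to 6 genes a list past the threshold by smallest p and the 3 genes nearest to each called member; the markers named were chosen after their values were seen. Promoters are from RefSeq (GRCm38.p6). Alternatives were the authors' table, no background correction, an offset of 16, median centring, no filter, the 60th percentile, each probe ID as a feature, each array left out, WT replicate 3 alone and a replicate block, and, chosen after seeing the data, no normalization between arrays.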

Additional observations from a re-analysis of the deposited data

How the results depend on the processing

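Fstl1 kept its direction and its call under every alternative run, and Inhba did so except with WT replicate 3 as the only WT array, a fit that takes the spread from the mutants alone. The rises of Fst and Acvr2b depended on the scaling. With median centring 2 members passed, 0 of them higher (0 also at an unadjusted p under 0.05 by limma), 758 features were higher and 3875 lower, and so were 4 and 20 pathway genes. Signs turned for Acvr1 (-0.051), Acvr2a (-0.013), Acvr2b (-0.0027), Chrd (-0.013), Smad1 (-0.083), Skil (-0.043), Smad2 (-0.12), Apmap (-0.030) and Zfp263 (-0.039). With no normalization between arrays, chosen after seeing the data, 2 members passed, 0 of them higher (0 also unadjusted by limma), with 595 features higher and 4032 lower and 3 and 20 pathway genes, and signs turned for Acvr1 (-0.090), Acvr2a (-0.053), Acvr2b (-0.042), Chrd (-0.053), Smad1 (-0.12), Skil (-0.083), Smad2 (-0.16), Pabpc1 (-0.026), Apmap (-0.069) and Zfp263 (-0.079). The cause was not tested. With WT replicate 3 as the only WT array, and so fewer samples, 1755 features passed (757 higher, 998 lower), with 1 member (0 higher, 1 at an unadjusted p under 0.05 by limma, and 1 lower) and 10 pathway genes (5 higher, 5 lower). With each probe ID as a feature 6300 passed (2884 higher, 3416 lower), since repeated rows count again. With an offset of 16, 7 pathway genes were higher. Without 1 array each, 2953 to 4313 features passed (1299 to 2013 higher, 1627 to 2300 lower), 3 to 5 members (1 to 3 higher, 2 lower) and 13 to 21 pathway genes (4 to 9 higher, 9 to 12 lower). The deviations of same-numbered arrays correlated at -0.20, -0.16 and 0.065, and those of differently numbered arrays at -0.096 to 0.21. So few arrays cannot show whether the replicate number pairs the embryos. With the number as a block 2861 features, 1 higher member and 6 higher pathway genes passed, and Fst was 0.30 (limma adjusted p = 0.0582).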

Other observations

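The spread within the groups differed between members. For Fstl1, 3% of detected features had a smaller SD among the mutant arrays (SD 0.026, n = 4) and 89.3% had a smaller one among the WT arrays (SD 0.22, n = 3). Fst was the reverse, with a smaller SD in 93.9% of features among the mutant arrays (SD 0.20) and in 1.3% among the WT arrays (SD 0.011). Inhba varied widely in both groups, with a smaller SD in 93% of features among the mutants and in 98.2% among WT. The median SD over all detected features was 0.086 in the mutants and 0.092 in WT. With 3 or 4 arrays a single SD is imprecise, and these differences in spread were not tested.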
